A study of Mus musculus with 18 samples.

Results

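The p53 target genes read here were Bbc3, Perp, Pmaip1, Trp53inp1, Phlda3, Bax, Cdkn1a, Ccng1, Sesn2 and Mdm2, which are 10 established targets. These genes were chosen with earlier results of these data known. All probe sets that the array annotation gives to one of them alone were read, which were 16 probe sets of 9 genes among 45037 probe sets and 18193 genes. Bax, and Trp53 itself, were not analysed here. The transcription factor p53 is held at a low level by Mdm2, an E3 ubiquitin ligase that is itself a p53 target, and rises when DNA is damaged or ribosome production fails. It then binds to sites in its targets, some of which halt the cell cycle while others start apoptosis through the mitochondria. In the early mouse embryo, raised p53 activity is known to kill neural crest and craniofacial progenitors, and loss of p53 lessens the defects of several craniofacial mutants.

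The RNA came from 18 whole mouse embryos at embryonic day 9.5, of mixed 129SvEv and C57Bl/6 background, with 1 embryo on each Affymetrix mouse genome array and 2 embryos per genotype. The genotypes combine the wild-type Tbx1 allele (+), a null allele (-) and 2 alleles of reduced activity, Neo and Neo2. Embryos without a wild-type allele were -/-, Neo/Neo, Neo2/-, Neo2/Neo and Neo2/Neo2, embryos with 1 were +/-, Neo/+ and Neo2/+, and WT embryos had 2. Tbx1 encodes a T-box factor that patterns the pharyngeal apparatus. It is mutated throughout the body in these lines, and the RNA of all tissues was pooled within an embryo, so fewer cells of a type and less RNA per cell cannot be told apart. Values below are log2 signals as deposited, and a difference of 1 stands for a 2-fold difference in signal. Levels of different probe sets are not compared, since probes differ in how strongly they bind.

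The Tbx1 signal was 4.98 and 5.16 on the -/- arrays and 5.04 and 5.20 on the Neo/Neo arrays, against 6.54 and 6.63 on the WT arrays. It fell by 1.52 in -/- (adjusted p = 0.003, limma) and fell by 1.47 in Neo/Neo (adjusted p = 0.0029), in the direction of the labels. Neo2/Neo2 embryos, at 6.62 on both arrays, did not lie below WT. The first -/- replicate had a median correlation of 0.985 to the others and the first +/- replicate 0.975, against 0.991 to 0.995 for the remaining 16. Both -/- and both WT embryos were female, and both Neo/Neo and both Neo2/Neo2 embryos were male, so these 2 genotypes were set against WT of the other sex, and a fit with sex as a term called 0 of the 16 p53 target probe sets as well. Array medians ran from 5.73 to 5.94. Precision is set by having 2 arrays per genotype.

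The promoters were searched for the p53 half-site, a motif of 10 letters that reads alike on both strands, in RefSeq windows of assembly GRCm38.p6 that run from 250 bases before a start site to 50 after it. Windows were found for 7 of the 10 genes, 10 windows in all, and 4 of them held at least 1 half-site, of Bax, Ccng1, Cdkn1a and Mdm2. Among all 32851 windows, 8.36% held one. A pair of half-sites at most 13 bases apart, the form of a full p53 site, was found in 1 of the 10 windows, that of Cdkn1a, and in 0.07% of all windows. The windows of Bbc3, Phlda3 and Sesn2 held no half-site, which says only that these letters are absent there. The 250 bases before the start sites of the measured genes with a match are shown so that the matches can be read beside the array values of Cdkn1a, Ccng1 and Mdm2, and capitals mark the half-sites.

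Cdkn1a, chr17:29090729-29090978, plus strand, with half-sites that begin at -73 and -51 from the start site: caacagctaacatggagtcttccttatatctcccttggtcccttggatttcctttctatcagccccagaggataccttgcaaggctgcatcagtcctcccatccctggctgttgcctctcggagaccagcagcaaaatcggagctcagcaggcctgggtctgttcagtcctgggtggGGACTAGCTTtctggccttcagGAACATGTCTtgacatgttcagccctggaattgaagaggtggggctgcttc
Ccng1, chr11:40755287-40755536, minus strand, with a half-site that begins at -185: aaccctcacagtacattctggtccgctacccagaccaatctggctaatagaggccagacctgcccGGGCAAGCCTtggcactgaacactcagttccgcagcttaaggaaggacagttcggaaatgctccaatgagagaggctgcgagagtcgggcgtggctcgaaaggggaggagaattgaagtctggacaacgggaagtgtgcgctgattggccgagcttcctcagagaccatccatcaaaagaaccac
Mdm2, chr10:117710759-117711008, minus strand, with a half-site that begins at -186: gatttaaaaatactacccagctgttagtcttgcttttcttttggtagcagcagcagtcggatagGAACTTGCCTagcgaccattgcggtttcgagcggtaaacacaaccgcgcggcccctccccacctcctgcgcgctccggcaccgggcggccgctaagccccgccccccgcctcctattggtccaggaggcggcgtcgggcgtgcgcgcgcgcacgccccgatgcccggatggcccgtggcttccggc

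No p53 target probe set passed an adjusted p under 0.05 in any of the 11 comparisons, which were each of the 8 mutant genotypes against WT, 0 against 1 wild-type allele, any difference among genotypes, and the change with the Tbx1 signal. The brightest probe sets of Bbc3, Perp and Ccng1 were nevertheless higher in all 8 mutant genotypes than in WT, by 0.13 to 0.33 for Bbc3, 0.17 to 0.43 for Perp and 0.12 to 0.50 for Ccng1. All 8 comparisons use the same 2 WT embryos, so they do not count as 8 observations of one direction. Cdkn1a, an arrest gene, and Mdm2, the feedback gene, had differences from WT between -0.10 and 0.16 over the genotypes by their brightest probe sets. Both had a matched half-site, as had Ccng1, another arrest gene, with the larger differences given above.

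Bbc3 (probe set 1423315_at) encodes PUMA, a BH3-only protein that frees Bax and Bak to open the mitochondrial membrane. Its signal was 7.35 and 7.62 in -/-, 7.33 and 7.52 in Neo/Neo, 7.50 and 7.42 in Neo2/-, 7.53 and 7.40 in Neo2/Neo and 7.49 and 7.51 in Neo2/Neo2. It was 7.39 and 7.42 in +/-, 7.38 and 7.42 in Neo/+ and 7.24 and 7.36 in Neo2/+, against 7.21 and 7.14 in WT. Both WT arrays were below all 16 mutant arrays. The genotype means ran, from low to high, WT, Neo2/+, Neo/+, +/-, Neo/Neo, Neo2/-, Neo2/Neo, -/- and Neo2/Neo2. Only the 2 lowest steps of that order, WT to Neo2/+ and Neo2/+ to Neo/+, exceeded the within-genotype SD of 0.0923. The larger, WT to Neo2/+, was 0.13 with a 95% interval from -0.10 to 0.37, so neighbouring genotypes were not resolved from each other. The difference from WT reached an unadjusted p under 0.05 in all 5 genotypes without a wild-type allele, with an SE of 0.11 in each. It was 0.31 in -/- (adjusted p = 0.214, limma), 0.25 in Neo/Neo (adjusted p = 0.664), 0.29 in Neo2/- (adjusted p = 0.784), 0.29 in Neo2/Neo (adjusted p = 0.661) and 0.33 in Neo2/Neo2 (adjusted p = 0.283). In the heterozygotes it was 0.23 in +/-, 0.23 in Neo/+ and 0.13 in Neo2/+.

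Perp (1416271_at) encodes a membrane protein of desmosomes that p53 induces during apoptosis and that p63 also drives in surface epithelium. Its signal was 7.94 and 7.99 in -/-, 8.06 and 8.05 in Neo/Neo, 7.88 and 8.27 in Neo2/-, 7.89 and 7.85 in Neo2/Neo and 8.10 and 7.98 in Neo2/Neo2. It was 8.20 and 7.97 in +/-, 8.09 and 8.10 in Neo/+ and 7.78 and 7.89 in Neo2/+, against 7.67 and 7.68 in WT. Again both WT arrays lay below all mutant arrays, and the step of 0.17 between WT and Neo2/+ was the one step between neighbouring genotypes above the within-genotype SD of 0.113. The 95% interval of that step ran from -0.09 to 0.43, so it was not resolved either. The largest differences were 0.43 in Neo/+ (SE 0.12, adjusted p = 0.440, limma) and 0.42 in +/- (SE 0.12, adjusted p = 0.390). The difference was 0.29 in -/- (adjusted p = 0.277), 0.38 in Neo/Neo (adjusted p = 0.490), 0.40 in Neo2/- (adjusted p = 0.782) and 0.37 in Neo2/Neo2 (adjusted p = 0.278), all with an unadjusted p under 0.05, and 0.20 in Neo2/Neo. Without replicate 2 of +/-, the +/- difference of Perp was 0.53 with an adjusted p of 0.0257, and it then rests on the +/- array that stood apart.

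Bbc3 and Perp were the only p53 target probe sets lowest on both WT arrays, 2 of 16, a count made after the values were seen. Of all 45037 probe sets, 0.815% had both WT arrays lowest and 0.686% had both highest. Without replicate 2 of WT, 4 of the 16 (1 of Bbc3, 1 of Perp and 2 of Ccng1) were lowest on the remaining WT array, where 8.79% of all probe sets were. The surface epithelium markers (7 of 7 measured: Krt8, Krt18, Krt5, Krt14, Epcam, Cdh1, Trp63) had a mean deviation of -0.32 to 0.31 on the mutant arrays and -0.19 to 0.05 on the WT arrays, and a summed linear signal of 1786 to 4274 on mutant and 2477 to 2861 on WT arrays. By genotype their mean deviation was -0.02 in -/-, 0.17 in Neo/Neo, -0.05 in Neo2/-, -0.25 in Neo2/Neo, 0.29 in Neo2/Neo2, -0.10 in +/-, 0.22 in Neo/+ and -0.17 in Neo2/+, against -0.07 in WT. They were thus above WT in Neo/Neo, Neo2/Neo2 and Neo/+, where Perp was 0.37 to 0.43 above WT, and below WT in Neo2/Neo and Neo2/+, where Perp had its 2 smallest differences, of 0.20 and 0.17. In +/-, where Perp was 0.42 above WT, their mean was not above WT. That mean joins -0.32 on replicate 1, the array that stood apart, and 0.12 on replicate 2, above both WT arrays. Perp was 8.20 on replicate 1 and 7.97 on replicate 2, so within +/- it ran opposite to the markers. In Neo2/- and -/- they lay at -0.05 and -0.02, near WT at -0.07, while Perp was 0.40 and 0.29 above WT. Their part in the Perp result was not tested.

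Pmaip1 (1418203_at) encodes Noxa, a BH3-only protein that blocks the survival factor Mcl1. It had the widest range of the p53 targets, with genotype means between 5.29 and 6.32. Its signal was 6.15 and 6.44 in -/-, 5.86 and 5.36 in Neo/Neo, 5.80 and 6.29 in Neo2/-, 6.14 and 6.50 in Neo2/Neo and 5.77 and 6.06 in Neo2/Neo2. It was 6.24 and 5.84 in +/-, 5.02 and 5.56 in Neo/+ and 5.72 and 5.84 in Neo2/+, against 5.38 and 5.54 in WT. Both arrays of 6 genotypes lay above WT, while Neo/Neo and Neo/+ each had 1 array below and 1 above both WT arrays. Pmaip1 was 0.83 higher in -/- (1.78-fold, SE 0.24, adjusted p = 0.159, limma) and 0.86 higher in Neo2/Neo (1.81-fold, SE 0.24, adjusted p = 0.592). It was 0.58 higher in Neo2/- (adjusted p = 0.790) and 0.58 higher in +/- (adjusted p = 0.415), also with an unadjusted p under 0.05. No step between neighbouring genotypes exceeded the within-genotype SD of 0.267.

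Trp53inp1 (1416926_at, the brighter, and 1416927_at) encodes a nuclear stress protein that favours the proapoptotic form of p53, and Phlda3 (1449002_at) a protein that holds back the survival kinase Akt. The brighter Trp53inp1 probe set was 9.63 and 9.74 in Neo2/Neo, 9.77 and 9.34 in Neo/Neo and 9.01 and 8.96 in Neo2/Neo2, against 9.19 and 9.20 in WT. Neo2/Neo was 0.49 higher than WT (SE 0.21, adjusted p = 0.71, limma) and Neo2/Neo2 differed from WT by -0.21, so the direction turned between genotypes. Phlda3 was above WT in 5 of the 8 genotypes, by -0.07 to 0.20 over all 8, and ranged from 7.65 to 8.10 over the 18 arrays.

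**Figure D1:**
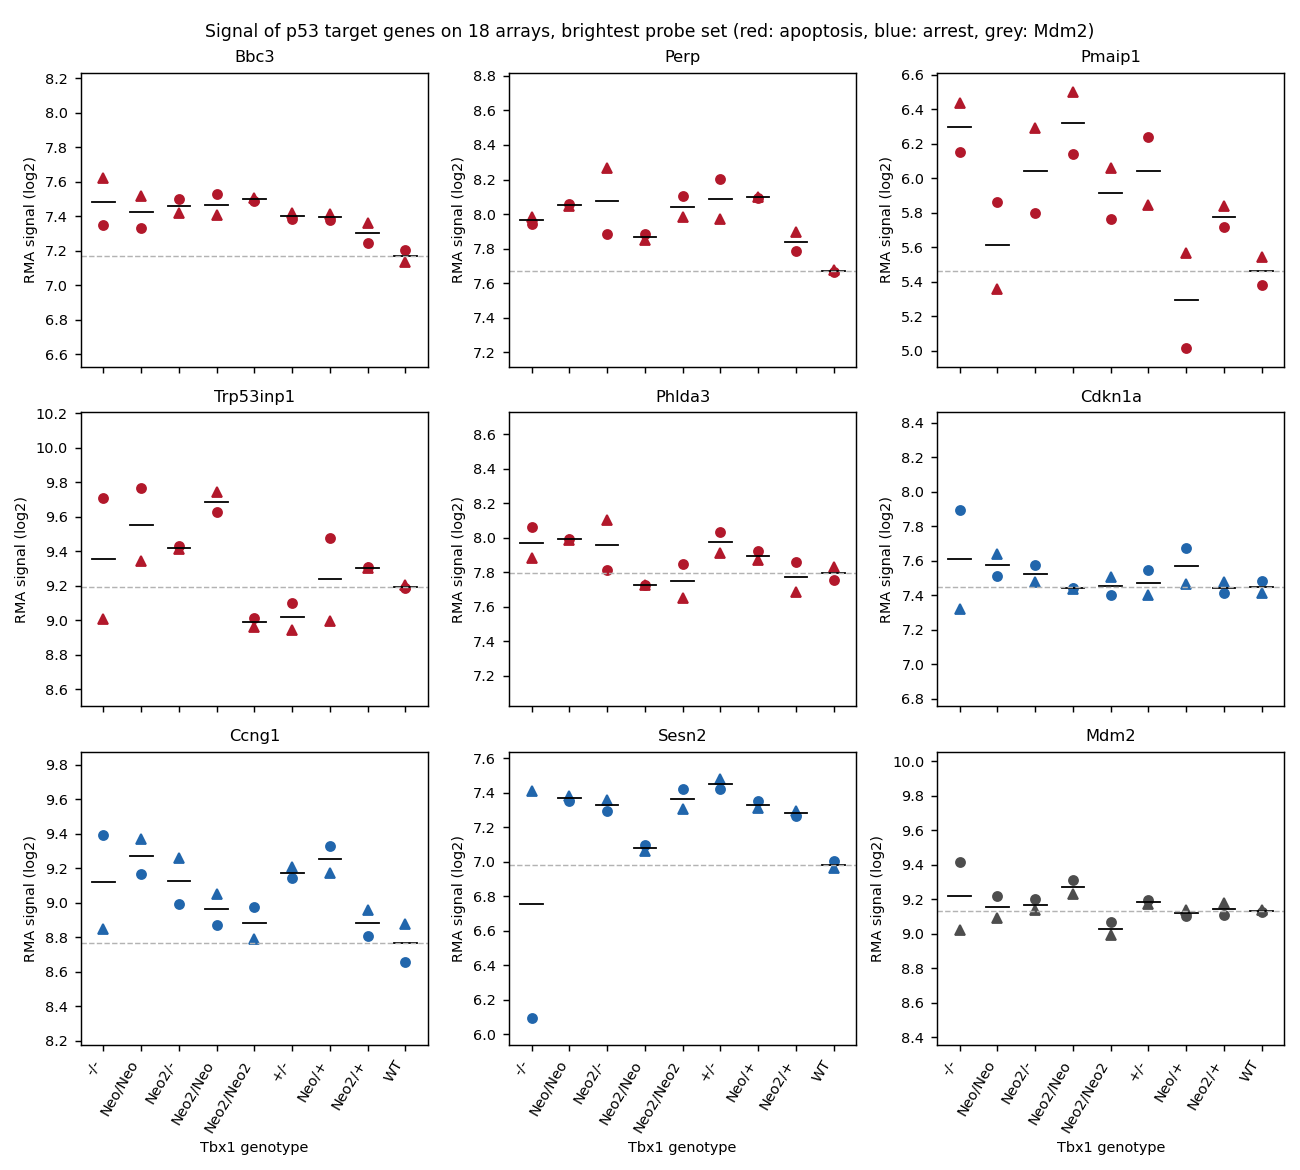
RMA signal (log2, vertical axis, every panel spanning the same 1.7 log2 units) of the brightest probe set of 9 p53 target genes by Tbx1 genotype (horizontal axis). Circles are replicate 1, triangles replicate 2, black bars genotype means and the dashed line the WT mean; both WT points are the lowest for Bbc3 and Perp, and replicate 1 of -/- is at 6.09 for Sesn2.

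Cdkn1a (1424638_at, the brighter, and 1421679_a_at) encodes p21, the inhibitor of cyclin-dependent kinases through which p53 halts the cell cycle. Its brighter probe set was 7.90 and 7.32 in -/-, 7.51 and 7.64 in Neo/Neo, 7.58 and 7.47 in Neo2/-, 7.44 and 7.44 in Neo2/Neo and 7.40 and 7.51 in Neo2/Neo2. It was 7.54 and 7.40 in +/-, 7.67 and 7.47 in Neo/+ and 7.41 and 7.48 in Neo2/+, against 7.49 and 7.42 in WT. The -/- replicates were the highest and the lowest of all 18 arrays, and the other genotypes overlapped WT or lay within 0.12 of it in the mean. The difference in -/- was 0.16, with a 95% interval from -0.17 to 0.49. Between embryos with 0 and 1 wild-type allele the interval was narrower, from -0.13 to 0.18.

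The second Cdkn1a probe set was 6.65 and 6.94 in -/-, against 7.08 and 7.17 in WT, a difference of -0.33 (SE 0.13, adjusted p = 0.256, limma). On replicate 1 of -/- the 2 probe sets of Cdkn1a lay at opposite ends of their ranges, 7.90 as the highest of 18 and 6.65 as the lowest. Their correlation over arrays was -0.17 with all 18 and 0.61 without the 2 arrays that stood apart.

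Ccng1 encodes cyclin G1, which brings a phosphatase to Mdm2 and is induced by p53 in most tissues. Of its 3 probe sets (1420827_a_at, 1450016_at and 1450017_at, from the brightest to the dimmest), the third had the largest differences from WT, with 8.65 and 8.23 in -/-, 8.24 and 8.18 in Neo/Neo, 8.0 and 8.37 in Neo2/-, 8.08 and 8.09 in Neo2/Neo and 8.22 and 7.89 in Neo2/Neo2. It was 8.09 and 8.18 in +/-, 8.49 and 8.24 in Neo/+ and 7.78 and 8.09 in Neo2/+, against 7.53 and 7.85 in WT. One WT array was the lowest of 18 and the other was above a single mutant array, replicate 1 of Neo2/+. The difference was 0.75 in -/- (SE 0.18, adjusted p = 0.131, limma) and 0.67 in Neo/+ (SE 0.18, adjusted p = 0.418). It was 0.52 in Neo/Neo (adjusted p = 0.570), 0.49 in Neo2/- (adjusted p = 0.782) and 0.45 in +/- (adjusted p = 0.415). By the brightest probe set the difference was 0.50 in Neo/Neo (SE 0.17, adjusted p = 0.535, limma), 0.41 in +/- (adjusted p = 0.416) and 0.48 in Neo/+ (adjusted p = 0.557), and by the second it was 0.50 in -/- (SE 0.20, adjusted p = 0.266) and 0.45 in Neo/+ (adjusted p = 0.670). The -/- values rest largely on replicate 1, the array that stood apart. The brightest probe set was 9.39 and 8.85 in -/-, which is 0.62 and 0.08 above the WT mean, and the second was 8.91 and 8.24, which is 0.83 and 0.16 above it, while the third was 0.96 and 0.54 above it. In Neo2/Neo2 the 3 differences were 0.12, -0.02 and 0.37.

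Sesn2 (1425139_at, the brighter, and 1451599_at) encodes sestrin 2, which restrains mTORC1 under stress. Its brighter probe set was 6.09 and 7.41 in -/-, 7.35 and 7.38 in Neo/Neo, 7.29 and 7.36 in Neo2/-, 7.10 and 7.06 in Neo2/Neo and 7.42 and 7.30 in Neo2/Neo2. It was 7.42 and 7.48 in +/-, 7.35 and 7.31 in Neo/+ and 7.26 and 7.29 in Neo2/+, against 7.0 and 6.96 in WT. Apart from replicate 1 of -/-, at 6.09, all mutant arrays were above both WT arrays, by genotype differences of 0.10 to 0.47. Without both arrays that stood apart, the difference of 0.38 in Neo2/Neo2 had an adjusted p of 0.0368 (limma). The second Sesn2 probe set did not share this order, with 6.58 and 6.69 in WT and differences between -0.17 and 0.07.

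Mdm2 (1423605_a_at, 1427718_a_at and 1457929_at, from the brightest to the dimmest), the negative feedback arm, was 9.41 and 9.03 in -/- and 9.07 and 9.00 in Neo2/Neo2 by its brightest probe set, against 9.13 and 9.14 in WT. Its difference in -/- was 0.09, with a 95% interval from -0.16 to 0.33. The second probe set was 8.33 and 8.0 in Neo2/Neo2, against 8.57 and 8.65 in WT, a difference of -0.44 (SE 0.16, adjusted p = 0.323, limma). The third was dim, between 3.15 and 3.85 on all arrays, and is the one p53 target probe set below a mean of 4.58, the bound that set off dim probe sets.

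Set against the whole array, the p53 targets called at an adjusted p under 0.05 were 0 of 16 in every comparison, where 0.0311% of all probe sets passed in -/-, 0.0822% in Neo/Neo, 0.00222% each in Neo2/-, Neo2/Neo and Neo2/Neo2, 0% in +/-, 0.0311% in Neo/+ and 0% in Neo2/+. At an unadjusted p under 0.05, 5 of 16 were higher and 1 lower in -/-, against 8.39% of all probe sets higher and 6.72% lower. The higher ones were 4 of 16 in Neo/Neo against 3.4% of the whole array, 4 in Neo2/- against 2.37%, 3 in Neo2/Neo against 3.24%, 4 in +/- against 7.22% and 4 in Neo/+ against 3.86%. In each of these 5 genotypes 0 of 16 were lower, where the share of the whole array was 3.61% in Neo/Neo, 3.91% in Neo2/-, 3.48% in Neo2/Neo, 4.49% in +/- and 3.5% in Neo/+. In Neo2/Neo2, 2 were higher, against 6.03%, and 1 was lower, against 5.59%. In Neo2/+, 0 were higher and 0 lower, against 1.96% and 4.55%. Probe sets of one gene measure the same transcripts, so the 16 are not independent. Without replicate 2 of -/-, the -/- differences rest on the array that stood apart, and they went in both directions. They were then 0.62, 0.83 and 0.96 for the Ccng1 probe sets, 0.44 and -0.47 for those of Cdkn1a and -0.89 for the brighter of Sesn2.

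The number of the 16 probe sets above WT, at any size, was 11 in -/-, 14 in Neo/Neo, 13 in Neo2/-, 13 in Neo2/Neo, 8 in Neo2/Neo2, 12 in +/-, 11 in Neo/+ and 10 in Neo2/+. Of all probe sets, 49.6% were above WT in -/-, 49.4% in Neo/Neo, 48.9% in Neo2/-, 45.7% in Neo2/Neo, 51% in Neo2/Neo2, 57.6% in +/-, 51.4% in Neo/+ and 49.6% in Neo2/+. The median difference of the 16 was 0.17 in -/-, 0.16 in Neo/Neo, 0.16 in Neo2/-, 0.15 in Neo2/Neo, 0.00 in Neo2/Neo2, 0.11 in +/-, 0.07 in Neo/+ and 0.03 in Neo2/+, against -0.02 to 0.04 over all probe sets. With the brightest probe set of each of the 9 genes it was 0.18 in -/-, 0.25 in Neo/Neo, 0.29 in Neo2/-, 0.19 in Neo2/Neo, 0.12 in Neo2/Neo2, 0.23 in +/-, 0.12 in Neo/+ and 0.12 in Neo2/+. The median over the brightest probe sets of all genes lay between -0.01 and 0.04. The choice of probe sets thus moved the median of Neo2/Neo2 to 0.00 from 0.12, and that of Neo2/+ to 0.03 from 0.12.

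Apoptosis genes and arrest genes were set beside each other as the mean deviation of their brightest probe sets from the 18-array means, over Bbc3, Perp, Pmaip1, Trp53inp1 and Phlda3 for apoptosis and Cdkn1a, Ccng1 and Sesn2 for arrest. In -/- the apoptosis genes were at 0.16 and 0.10 and the arrest genes at -0.13 and -0.06, and in Neo2/Neo the apoptosis genes were at 0.10 and 0.16 and the arrest genes at -0.12 and -0.07. In Neo/+ the order was turned, with apoptosis genes at -0.10 and -0.09 and arrest genes at 0.19 and 0.06. In Neo/Neo the arrays disagreed, with apoptosis genes at 0.12 and -0.03 and arrest genes at 0.09 and 0.21. Apoptosis minus arrest also had both signs in Neo2/- (-0.03 and 0.11) and Neo2/Neo2 (-0.05 and 0.01). It was -0.002 and -0.17 in +/- and -0.005 and -0.05 in Neo2/+. The apoptosis genes did not move as one. In Neo2/Neo, Pmaip1 (6.32), Trp53inp1 (9.69) and Bbc3 (7.47) lay above their 18-array means of 5.86, 9.31 and 7.40. Perp (7.87) and Phlda3 (7.73) lay below theirs of 7.97 and 7.87. In -/-, Pmaip1 lay furthest above its 18-array mean, at 6.30, and Perp did not lie above its own. In WT both groups were the lowest of all 18 arrays, at -0.24 and -0.20 for apoptosis and -0.21 and -0.17 for arrest.

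The nearest mutant values to WT were -0.10 for the apoptosis genes, on a Neo/+ and a Neo2/+ array, and -0.13 for the arrest genes, on replicate 1 of -/-. The low arrest mean of that array rests on the Sesn2 value of 6.09, below its 18-array mean of 7.21. Cdkn1a (7.90) and Ccng1 (9.39) lay above theirs of 7.50 and 9.05 there. On -/- replicate 2 the gap was 0.17, but Cdkn1a (7.32) and Ccng1 (8.85) lay below their means and Sesn2 (7.41) above. The arrest genes thus did not move as one in -/-, and the order there rests in part on the array that stood apart. Between embryos with 0 and 1 wild-type allele, 3 of 5 apoptosis genes and 1 of 3 arrest genes were higher with 0, with median differences of 0.10 and -0.03.

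**Figure D2:**
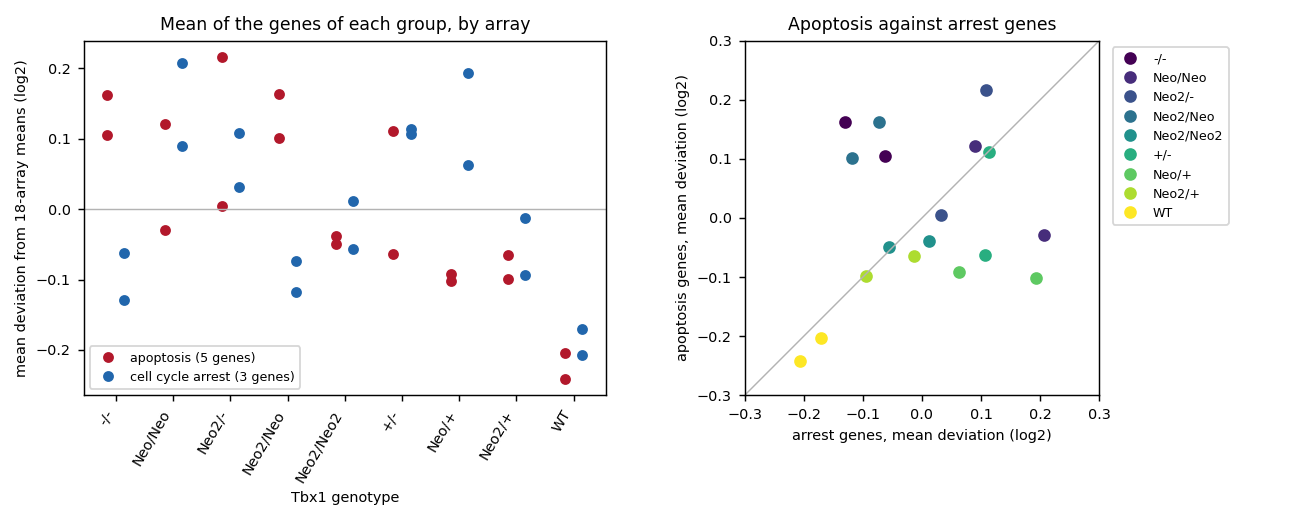
Left, mean deviation from the 18-array means (log2, vertical axis) of 5 apoptosis genes (red) and 3 arrest genes (blue) by Tbx1 genotype, 1 point per array. Right, the apoptosis mean against the arrest mean of each array, coloured by genotype, with the line of equal values. Both WT arrays lie at the lower left. Both arrays of -/- and of Neo2/Neo lie above the line, while those of Neo/Neo, Neo2/- and Neo2/Neo2 lie on either side of it.

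The 10 arrays with 0 wild-type alleles were set against the 6 arrays with 1, and 0 of 16 p53 target probe sets were called, as were 0% of all probe sets. Of the 16, 7 were higher with 0 alleles at any size, where 44.3% of all probe sets were. At an unadjusted p under 0.05 there were 0 of 16 in either direction, against 1.43% of all probe sets higher and 3.09% lower. Pmaip1 averaged 6.04 with 0 and 5.70 with 1 allele, a difference of 0.33 with a 95% interval from -0.02 to 0.69. Bbc3 averaged 7.47 with 0 and 7.37 with 1 allele, a difference of 0.10 with an interval from -0.01 to 0.20. Perp did not separate these classes, with a difference of -0.01 and an interval from -0.15 to 0.14. The 8 differences of Perp from WT were 0.17 to 0.43, but they share the same 2 WT embryos. The smallest, in Neo2/+, had a 95% interval from -0.09 to 0.43, which overlaps that of the allele comparison.

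The moderated F-test asked for any difference among the 9 genotypes. It called 0.275% of all probe sets and 0 of the 16, and 5 of 16 had an unadjusted p under 0.05, against 13.7% of all probe sets. These were Pmaip1 (adjusted p = 0.221, limma), the second Trp53inp1 probe set (adjusted p = 0.305), the second Cdkn1a probe set (adjusted p = 0.346), the third Ccng1 probe set (adjusted p = 0.348) and Perp (adjusted p = 0.355). The second Trp53inp1 probe set passed in 3 of the alternative fits, with an adjusted p of 0.033 under array weights and 0.0272 without both arrays that stood apart.

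Against the Tbx1 signal of each array, the slope per log2 unit of Tbx1 was positive for 4 of 16 p53 target probe sets, where 55.6% of all probe sets had a positive one, with a median of -0.08 against 0.01 over all probe sets. No p53 target passed among 45036 probe sets, 0% of which were called, and 0 of 16 had a positive slope and 4 a negative slope at an unadjusted p under 0.05, against 4.69% and 4.06% of all probe sets. The slopes of Trp53inp1 were -0.26 (SE 0.09) and -0.24 (SE 0.08) by its 2 probe sets, and those of Ccng1 were -0.16 (SE 0.08) by the brightest and -0.22 (SE 0.09) by the third. All 4 had limma's adjusted p between 0.553 and 0.566. Both Trp53inp1 probe sets had their highest genotype mean in Neo2/Neo and their lowest in Neo2/Neo2.

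**Figure D3:**
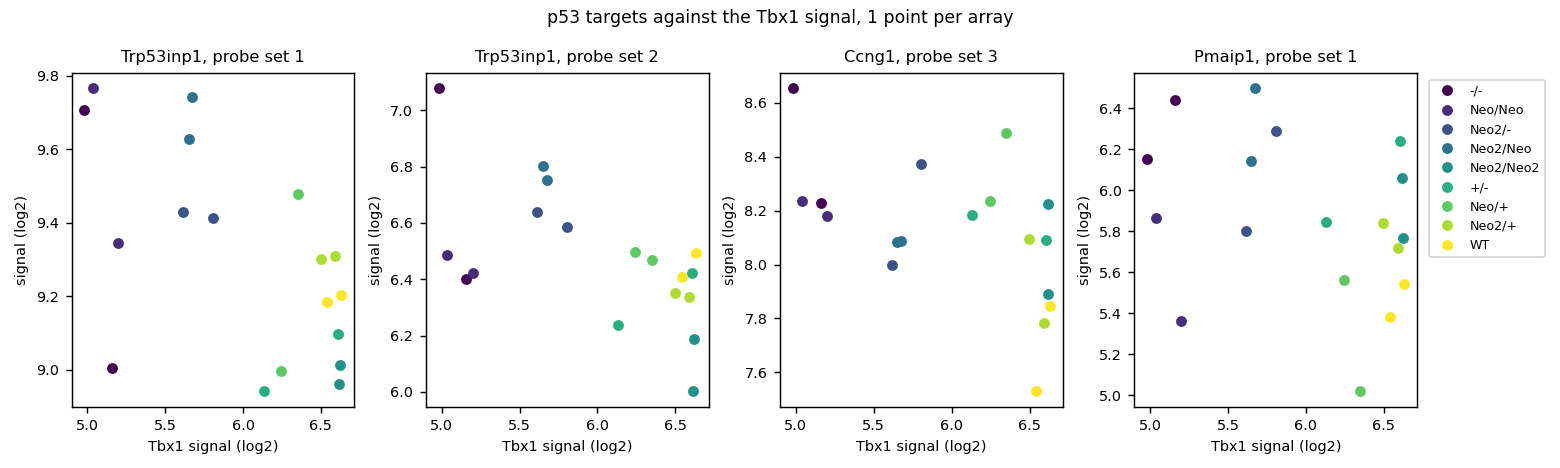
Signal (log2, vertical axis) of both Trp53inp1 probe sets, the third Ccng1 probe set and Pmaip1 against the Tbx1 signal (log2, horizontal axis), 1 point per array and coloured by genotype. The slopes of the 2 Trp53inp1 probe sets were -0.26 and -0.24 per log2 unit of Tbx1 and did not pass the adjusted threshold.

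Among the 5 genes with more than 1 probe set, the 3 of Ccng1 correlated at 0.74 to 0.83 over the 18 arrays, the 2 of Trp53inp1 at 0.76, the 2 brighter of Mdm2 at 0.79 and the 2 of Sesn2 at 0.42. Those of Cdkn1a, as given above, did not follow each other over all 18 arrays. The third Mdm2 probe set, which was dim, correlated at 0.13 and 0.10 with the others.

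**Figure D4:**
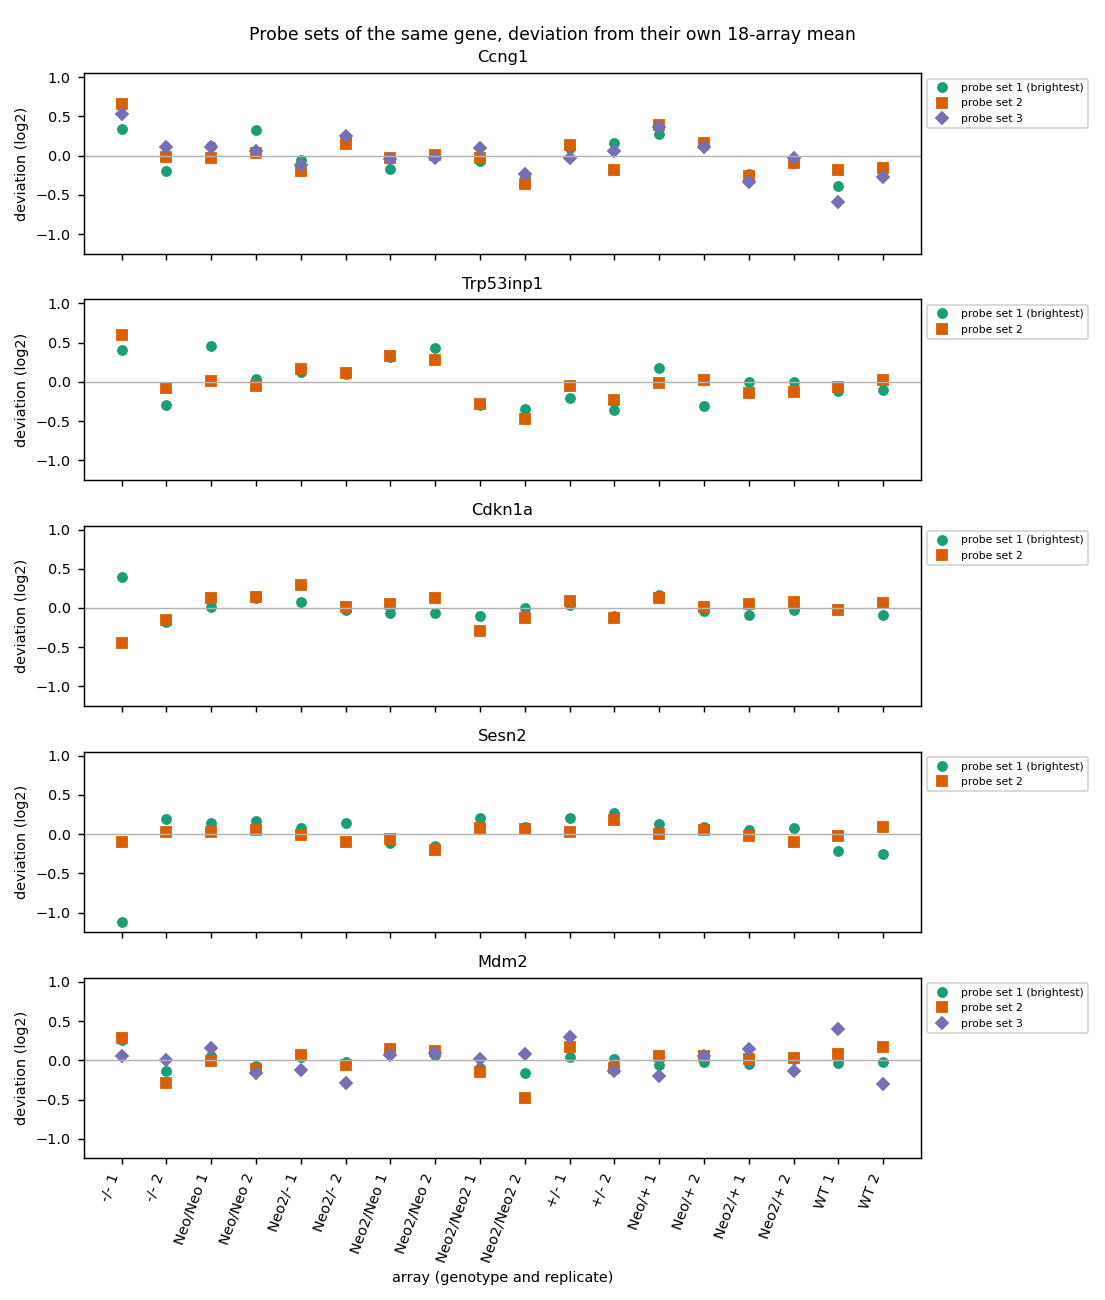
Deviation of each probe set from its own 18-array mean (log2, vertical axis) for the 5 genes with more than 1 probe set, by array (horizontal axis, genotype and replicate). Probe sets are numbered from the brightest; on replicate 1 of -/- the 2 of Cdkn1a lie on opposite sides of 0, and Sesn2 probe set 1 is far below probe set 2.

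The genes most like each p53 target over the 18 arrays were picked by Pearson correlation among the brightest probe sets of 18193 genes, as a description, since a search over so many genes can return high values for many patterns. For Bbc3 they were Mcc (0.75), Osr1 (0.74) and Zdhhc16 (0.74), and for Perp they were Smim3 (0.83), Zfp850 (0.83) and Poglut3 (0.82). Trp53inp1 was followed by Gpm6a (0.96), a neuronal membrane glycoprotein, 6330403K07Rik (0.96) and Tmx4 (0.94), and Ccng1 by Lin54 (0.91). Mdm2 was followed by E130114P18Rik (0.93), Cd53 (0.91) and Tyrobp (0.90), of which Cd53 and Tyrobp are known from leukocytes. The closest other p53 target was Perp for Bbc3 (0.51), Ccng1 for Perp (0.64), Bbc3 for Pmaip1 (0.38), Mdm2 for Trp53inp1 (0.69), Phlda3 for Ccng1 (0.74) and Ccng1 for Cdkn1a (0.62). The 3 genes closest to Sesn2 had values of 0.95 to 0.96 over 18 arrays and 0.78 to 0.79 over the 16 without those that stood apart.

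The macrophage markers (5 of 5 measured) deviated by 0.42 on replicate 1 of -/- and by 0.24 and 0.29 in Neo2/Neo, the arrays on which the brightest Mdm2 probe set was highest, and by -0.24 and -0.13 in Neo2/Neo2, where it was low. On the WT arrays they lay between -0.09 and 0.04. Their summed linear signal was 162 to 240 on mutant arrays and 182 to 189 on WT arrays, and their part in the Mdm2 values was not tested. The markers of visceral yolk sac endoderm (8 of 8 measured) deviated by -0.54 to 0.49 on mutant arrays and -0.06 to 0.10 on WT arrays, those of decidua and placenta (7 of 8) by -0.23 to 0.17 on mutant and 0.05 to 0.07 on WT arrays, and those of primitive erythroid cells (5 of 6) by -0.43 to 0.35 on mutant and 0.20 to 0.25 on WT arrays. All 9 erythroid probe sets were below WT in -/-, Neo2/Neo2, +/-, Neo/+ and Neo2/+, and all 9 were above it in Neo2/Neo. By genotype the erythroid mean deviation was -0.04 in -/-, -0.00 in Neo/Neo, 0.23 in Neo2/-, 0.31 in Neo2/Neo, -0.24 in Neo2/Neo2, -0.19 in +/-, -0.05 in Neo/+ and -0.24 in Neo2/+, against 0.23 in WT, and its part in the differences of the p53 targets from WT was not tested.

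Among regulators of p53, 11 of 12 genes were measured by 37 probe sets, of which 0 were called in 10 comparisons and 1 in the F-test, where 0.275% of all probe sets were. It was a probe set of Atm, the kinase that senses DNA breaks, with an adjusted p of 0.0256 (limma), and is named for that call, seen in these data. By genotype it averaged 8.89 in -/-, 7.35 in Neo/Neo, 8.48 in Neo2/-, 8.16 in Neo2/Neo, 8.69 in Neo2/Neo2, 8.37 in +/-, 7.39 in Neo/+ and 8.76 in Neo2/+, against 8.5 in WT. It is not the brightest probe set of Atm, which had an adjusted p of 0.644 in the same test. Among the brightest probe sets the smallest F-test p-values were those of Chek1 (adjusted p = 0.437, limma), a checkpoint kinase, Ppm1d (adjusted p = 0.487), a phosphatase that ends the p53 response, and Atr (adjusted p = 0.508), a DNA damage kinase. Of 26 further p53 targets, all measured by 50 probe sets in all, 0 were called. The number of the 50 above WT was 34 in -/-, 33 in Neo/Neo, 39 in Neo2/-, 28 in Neo2/Neo, 31 in Neo2/Neo2, 36 in +/-, 31 in Neo/+ and 30 in Neo2/+, to be read against the shares of 45.7% to 57.6% given above. Their median difference was 0.11 in -/-, 0.06 in Neo/Neo, 0.09 in Neo2/-, 0.02 in Neo2/Neo, 0.06 in Neo2/Neo2, 0.07 in +/-, 0.08 in Neo/+ and 0.06 in Neo2/+, against -0.02 to 0.04 over all probe sets. Among their brightest probe sets the smallest F-test p was that of Eda2r (adjusted p = 0.178, limma), a receptor of the tumour necrosis factor receptor family. Its mean was 5.10 in +/-, 5.06 in Neo2/Neo2, 4.86 in Neo2/- and 4.78 in -/-, against 4.44 in WT. Aen, a nuclease of apoptosis (adjusted p = 0.300, limma), and Polk, a translesion DNA polymerase (adjusted p = 0.319), came next.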

How the data were processed

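Total RNA of 18 whole embryos was hybridised after biotin labelling of 6 µg per array, per the labels' protocols. The values analysed are log2 probe set signals that the authors deposited, which were made by the RMA method in affy, per the submitters' processing notes, in versions not given in the sources used here. RMA corrects background, equalises the array distributions and summarises the probes of a set. Without a detection call, dim signals and background cannot be told apart. Values were used as deposited, with no filter and no rescaling. Genes were named by the platform annotation, which gave 1 symbol to 34945 of 45037 probe sets, several genes to 932 and none to 9160.

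Differences were tested two-sided with limma 3.58.1 in R 4.3.3 (lmFit and eBayes), and p-values were adjusted over all probe sets by Benjamini-Hochberg, with calls under 0.05. A fit with 9 genotype means, 9 residual and 3.63 prior degrees of freedom, gave the differences from WT and the F-test. Fits by number of wild-type alleles and on the Tbx1 signal left 15 and 16 residual degrees of freedom. SE and intervals are limma's moderated ones. The p53 targets, the other gene lists and the groups within them were chosen with earlier results of these data known. Every probe set of each p53 target is described. Test values are given where the adjusted or unadjusted p was under 0.05. Other lists are named by their 3 smallest F-test p-values, and likeness by the highest Pearson correlations. The brightest probe set has the highest mean over the 18 arrays.

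On simulated data with 45037 probe sets, the -/- comparison recovered 13.4% of changes of 0.5, 79.1% of changes of 1 and 100% of changes of 2 on the log2 scale. The comparison of 0 with 1 wild-type allele recovered 86.6% of changes of 0.5. In that simulation, genotypes with the same number of wild-type alleles did not differ, and no array stood apart. Both can add to the spread in the deposited values, so these shares may not hold there. The replicates are separate embryos per the labels. Replicate numbers were not taken to pair the samples. Of 36 correlations between the replicate differences of 2 genotypes, 9 were over 0.1, with a range from -0.26 to 0.19. No test was run on them, so pairing by replicate number was not settled. The alternatives left out each array, left out both arrays that stood apart, took embryo sex or the replicate number as a term, used an intensity trend, array weights or median scaling, left out dim probe sets or kept 1 probe set per gene.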

Additional observations from a re-analysis of the deposited data

Results flagged for a closer look

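In groups of 4 to 10 arrays, with genotypes pooled by the number of wild-type alleles, a value was singled out where its gap to the nearest other value was large for the whole range by Dixon's criterion. Of 32 tests on the p53 target probe sets, 3 gave such a value, and chance gives about 1 in 20. The Sesn2 signal on -/- replicate 1, by its brighter probe set, was 6.09, below 7.06 to 7.42 on the other 9 arrays without a wild-type allele. The second Ccng1 probe set on the same array was 8.91, above 7.89 to 8.40 on the others. The Bbc3 signal on Neo2/+ replicate 1 was 7.24, below 7.36 to 7.42 on the other 5 arrays with 1 wild-type allele, and still above both WT arrays at 7.21 and 7.14.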

How the results depend on the processing

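The count of p53 target probe sets called was 0 with the main settings in all 11 comparisons. Leaving out 1 array gave 0 to 1 in +/- against WT (Perp, without replicate 2 of +/-), 0 to 7 in -/- against WT, 0 to 2 in the F-test, and 0 elsewhere. The 7 and the 2 arose without replicate 2 of -/-. They rest on replicate 1 of -/- alone, whose spread is then assumed to be that of the other genotypes. The calls in -/- went in both directions. The share of all probe sets called in that fit is not given here, so neither count is read as a result. Without both arrays that stood apart, 1 was called in Neo2/Neo2 against WT (Sesn2) and 2 in the F-test (Trp53inp1 and Sesn2), and array weights gave 1 in the F-test (Trp53inp1). The number of p53 target probe sets lowest on both WT arrays was 2, and 2 to 4 when 1 array was left out, the 4 arising without replicate 2 of WT. That count and its alternatives were chosen after seeing the data. The replicate block gave 0 calls in all 11 comparisons, and embryo sex as a term also gave 0. The 32 p53 target differences and slopes with an unadjusted p under 0.05 kept their direction under all alternatives run for them. The 2 embryos per genotype, and the log2 differences of about 0.5 or less that most p53 targets showed, limit what could be called.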

Other observations

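Members of the Bcl2 family and caspases, the proteins on which PUMA and Noxa act, were read as a list of 18 genes, of which 16 were measured by 54 probe sets and 0 were called in any comparison with limma, against 0.0311% of all probe sets in -/- and 0.275% in the F-test. At an unadjusted p under 0.05, 9 of the 54 were higher in -/- and 3 lower, against 8.39% of all probe sets higher and 6.72% lower. At any size 26 of the 54 were above WT and 28 below, with a median of -0.02. Among the brightest probe sets the higher ones were those of the initiator caspase Casp8 (0.43), the BH3-only protein Bid (0.41), the pore-forming Bak1 (0.60), the apoptosome caspase Casp9 (0.25) and Diablo (0.24), all with limma's adjusted p between 0.159 and 0.31. Bak1 had the smallest F-test p of the brightest probe sets (adjusted p = 0.240, limma). Its mean was 7.41 in -/-, 7.67 in Neo2/Neo2 and 7.32 in Neo/+, against 6.81 in WT, while in Neo2/Neo it was 6.76.

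Of 18 cell cycle genes 17 were measured, by 41 probe sets, and 0 were called. Among their brightest probe sets that of the retinoblastoma gene Rb1 had the smallest F-test p (adjusted p = 0.194, limma), followed by the S phase cyclin Ccne1 (adjusted p = 0.327) and the inhibitor Cdkn1b (adjusted p = 0.426). The Rb1 mean was 8.53 in Neo/Neo, 8.51 in Neo2/Neo and 7.63 in Neo2/Neo2, against 7.97 in WT. In -/- 19 of the 41 probe sets were above WT and 22 below.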
